A study of Mus musculus with 16 samples.

Results

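PGC-1α peaks were described for 6 genes that encode chromatin and transcription coregulators, Zmiz1, Zmiz2, Ahdc1, Chd7, Ehmt1 and Zeb1, in primary hepatocytes of C57BL/6J mice. A cluster, a region of piled-up reads with a deposited log2 fold over input and −log10 p, was given to a gene when its midpoint lay inside the gene on the same strand (mm10, GENCODE M21). The genes held 5172 of 1331383 clusters of the 8 immunoprecipitated libraries. They held 867 of 35942 enriched peaks, taken as clusters with a log2 fold of at least 3 and a −log10 p of at least 3, and 235 of 8478 peaks of the authors' 4 reproducible lists. The genes were chosen with the number and fold of these peaks known, so both are given as description, without a test. The label of heavily bound genes did not hold for all 6. Zmiz2 had 0 listed peaks and Ehmt1 had 4, while Zmiz1 had 129, Ahdc1 46, Chd7 29 and Zeb1 27.

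PGC-1α was immunoprecipitated with its crosslinked RNA and sequenced by single-end eCLIP after ultraviolet light at 254 nm and 400 mJ/cm2. Hepatocytes were untreated (control) or received 200 nM glucagon, the fasting hormone of the pancreas, for 3 h, and the labels give a night in starvation medium before it. Each treatment gave a lower and an upper band with 2 replicates each, making 8 immunoprecipitated libraries in 4 groups beside 8 inputs. No genetic change is named in the labels. Nor do they tell if the replicates of a group came from different cultures or animals, so a p-value here reflects library-to-library spread, which may be technical. All 10 hepatocyte markers had clusters, 330 to 679 in sum per library. Kupffer cell markers had clusters in 1 of 6 genes (3 to 8 per library), endothelial markers in 1 of 6 (0 to 1), stellate markers in 1 of 6 (0 to 4) and cholangiocyte markers in 2 of 6 (0 to 12). The libraries held 26279 to 260814 clusters, and read depth is unknown. Glucagon lower band replicate 1 stood apart with 26279 clusters and 979 enriched peaks, against at least 97629 clusters and 2816 enriched peaks in the other libraries.

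PGC-1α is a coactivator that docks on transcription factors at target genes and carries RNA-binding domains of its own, and in liver it drives the fasting programme. Coregulators of the kinds described here act on the same layer of control. Some remodel nucleosomes or methylate histones, others modify transcription factors or repress through corepressor complexes. Zmiz1 and Zmiz2 are PIAS-like zinc finger coactivators, Ahdc1 is an AT-hook DNA-binding protein, Chd7 is an ATP-dependent chromatin remodeller, Ehmt1 is a histone H3 lysine methyltransferase, and Zeb1 is a zinc finger repressor known from epithelial plasticity.

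Zmiz1 had 6 of the 8 loci that were enriched in every library, and Ahdc1 and Chd7 had 1 each. Zmiz1 lies on chromosome 14 at 25459185 to 25666743 on the plus strand. Listed peaks that shared at least 1 base were merged into loci, and 6 of the 64 loci of Zmiz1 were in all 4 lists and enriched in 8 of 8 libraries. Loci that only abut, as 25460598 to 25460779 and 25460780 to 25461003 do, were kept apart. A cluster of a library can overlap more than 1 locus. In glucagon lower band replicate 1 the loci at 25460352 and 25460598 had the same log2 fold (4.47) and −log10 p (9.62), so 1 cluster may count for both. The sequences of these 6 loci, the most constant of the gene, are shown, and those of the Ahdc1 and Chd7 loci are not shown. The first 5 lie in the first intron within 2 kb of the 5′ end of the gene, and the last lies in an exon of a noncoding Zmiz1 transcript. The 4 from 25460122 to 25461003 also lie inside Gm47920, an annotated sense-intronic RNA at 25459980 to 25462387, and its reads cannot be told apart from those of the Zmiz1 intron. Sequences are from GENCODE M21 transcripts on GRCm38 (mm10), plus strand, 5′ to 3′, and capitals mark the bases covered by an enriched peak in all 8 libraries.
Zmiz1 chr14:25459764-25459891: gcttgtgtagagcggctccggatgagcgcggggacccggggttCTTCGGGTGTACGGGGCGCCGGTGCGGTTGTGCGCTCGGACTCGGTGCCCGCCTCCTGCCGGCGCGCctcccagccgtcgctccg
Zmiz1 chr14:25460122-25460331: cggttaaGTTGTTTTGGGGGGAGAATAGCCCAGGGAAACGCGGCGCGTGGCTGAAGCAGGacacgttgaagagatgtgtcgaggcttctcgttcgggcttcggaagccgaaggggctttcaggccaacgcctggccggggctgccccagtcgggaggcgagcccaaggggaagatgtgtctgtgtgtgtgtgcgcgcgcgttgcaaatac
Zmiz1 chr14:25460352-25460590: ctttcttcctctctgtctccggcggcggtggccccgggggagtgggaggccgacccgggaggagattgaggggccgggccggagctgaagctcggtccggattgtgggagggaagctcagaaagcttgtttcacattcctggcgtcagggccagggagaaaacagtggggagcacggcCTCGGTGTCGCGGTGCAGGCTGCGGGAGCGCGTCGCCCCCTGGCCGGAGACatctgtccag
Zmiz1 chr14:25460598-25460779: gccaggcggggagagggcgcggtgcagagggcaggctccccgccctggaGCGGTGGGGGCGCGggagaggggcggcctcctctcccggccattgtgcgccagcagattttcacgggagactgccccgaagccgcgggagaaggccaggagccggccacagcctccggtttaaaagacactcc
Zmiz1 chr14:25460780-25461003: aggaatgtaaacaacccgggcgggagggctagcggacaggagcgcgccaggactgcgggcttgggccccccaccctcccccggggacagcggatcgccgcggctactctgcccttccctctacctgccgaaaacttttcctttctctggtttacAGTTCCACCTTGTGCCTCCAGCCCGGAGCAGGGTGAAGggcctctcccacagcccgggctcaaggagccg
Zmiz1 chr14:25607863-25608070: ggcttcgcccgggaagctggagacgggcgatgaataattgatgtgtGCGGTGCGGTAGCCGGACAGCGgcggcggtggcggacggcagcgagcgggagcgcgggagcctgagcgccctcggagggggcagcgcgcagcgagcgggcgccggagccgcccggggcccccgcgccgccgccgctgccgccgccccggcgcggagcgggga

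The shown sites were rich in G and C. Their GC content was 75.0%, 61.9%, 67.8%, 72.0%, 66.1% and 79.8%, in the order shown, and the last held 37 CG dinucleotides in 208 nt. In the 2831 nt window at 25459557 to 25462387 of chromosome 14, which starts at the first intron and holds 51 listed peaks, bases inside listed loci were 64.6% GC (1442 nt) and bases outside them 56.4% GC (1389 nt). G was the commonest base in the window, at 33.6%. These are single values of 1 sequence and were not tested.

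The shown sites were picked for a log2 fold of at least 3 in every library, so only the spread of their folds is described. Values by library are given throughout in the order control lower band replicates 1 and 2, control upper band 1 and 2, glucagon lower band 1 and 2, and glucagon upper band 1 and 2, and at a locus each is the highest deposited log2 fold of the clusters that overlap it. The site centred 642 nt from the 5′ end had log2 folds of 4.42, 4.35, 3.69, 4.73, 3.74, 5.84, 4.15 and 4.56. At 1041 nt they were 5.07, 4.26, 4.44, 5.37, 3.75, 5.94, 4.09 and 5.72. The site at 1503 nt varied least of these, with 5.07, 4.68, 4.73, 4.86, 4.47, 5.05, 4.56 and 5.12. Control and glucagon libraries overlapped at each of these 3 sites. In the noncoding exon, 148781 nt into the gene, log2 folds were 3.82, 3.98, 3.17, 3.38, 4.64, 4.01, 3.08 and 4.28, which also overlapped between treatments.

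**Figure D1:**
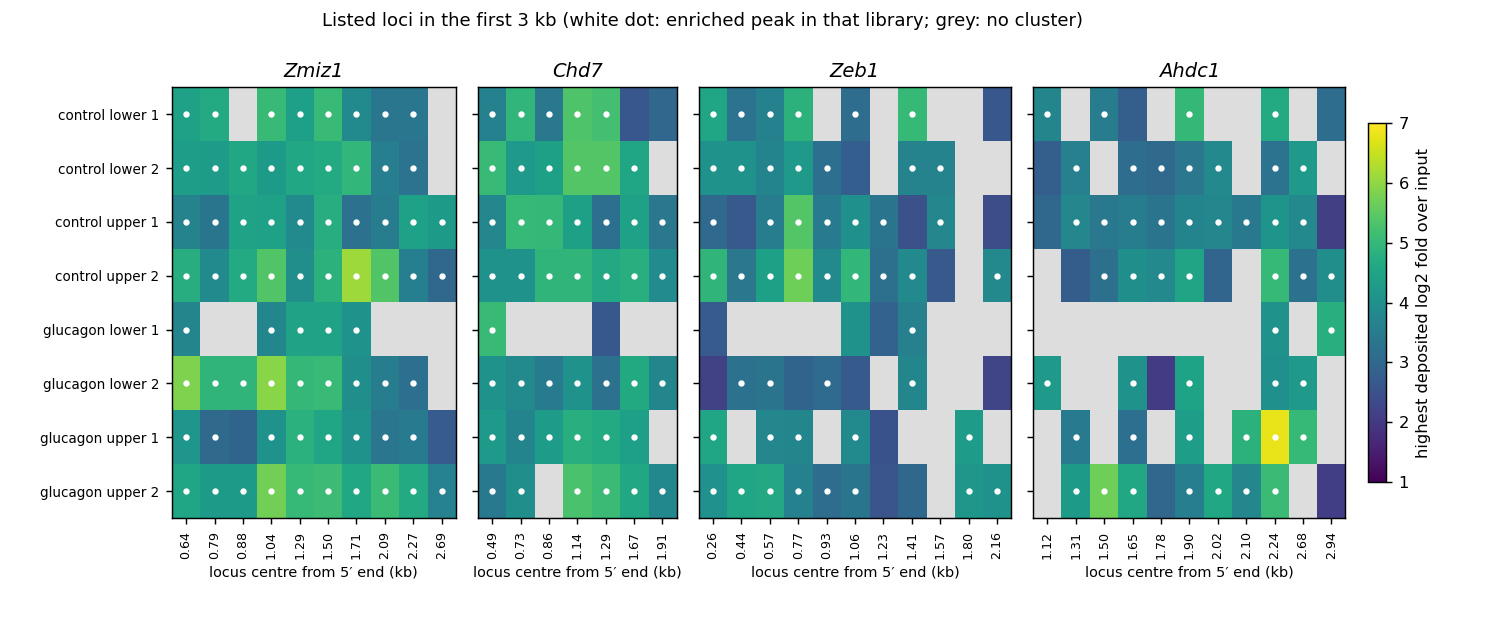
Highest deposited log2 fold over input (colour) at listed loci whose centres lie within 3 kb of the 5′ end of Zmiz1 (10 loci), Chd7 (7), Zeb1 (11) and Ahdc1 (11), by library (rows) and distance from the 5′ end in kb (columns). White dots mark an enriched peak and grey marks no cluster; the row of glucagon lower band replicate 1, the smallest library, has the most grey cells, while the Zmiz1 loci from 1.04 to 1.71 kb have a white dot in all 8 rows.

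Zmiz1 had more enriched peaks than the other 5 genes together. Its enriched peaks numbered 72, 65, 48, 60, 34, 68, 38 and 87 by library, of 236, 273, 320, 383, 154, 348, 261 and 391 clusters. It ranked 3 of 13156 genes with a cluster by listed peaks, with 40 and 42 listed for the control lower and upper bands and 12 and 35 for those of glucagon. Among its listed peaks 44 also fall inside Gm47920. The highest −log10 p in the 6 genes was 79.8, in Zmiz1.

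Its paralogue Zmiz2 (chromosome 11, 6389074 to 6406158, plus strand) had few clusters and few enriched peaks. Clusters numbered 11, 12, 13, 15, 0, 15, 6 and 10, and enriched peaks 1, 2, 1, 1, 0, 0, 0 and 0. With 0 to 2 enriched peaks per library the counts are too small to tell the treatments apart. How many other genes with so few peaks show the same order was not counted. Clusters overlapped between treatments only through the 15 of glucagon lower band replicate 2. With 5 enriched peaks in all, Zmiz2 was under the minimum of 16 for the test of treatment.

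Ahdc1 (chromosome 4, 133011260 to 133078110, plus strand) had the largest enriched share of its clusters, 34.7% of 573. Enriched peaks numbered 19, 29, 36, 32, 4, 19, 18 and 42. Listed peaks numbered 7, 24, 1 and 14 for control lower, control upper, glucagon lower and glucagon upper band, placing the gene at rank 23. All but 3 of its 199 enriched peaks, 196, lay in the second intron of its longest coding transcript, which is 42725 nt long at 133012288 to 133055012. The locus at 133013402 to 133013604, 2243 nt from the 5′ end, was the only Ahdc1 locus in all 4 lists and the only one enriched in all 8 libraries, with log2 folds of 4.68, 3.27, 4.11, 5.01, 4.05, 4.01, 6.81 and 5.08. The value of 6.81, in glucagon upper band replicate 1, was the highest at any locus of the 6 genes.

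Chd7 (chromosome 4, 8690406 to 8867659, plus strand) had 9, 15, 13, 26, 1, 9, 17 and 23 enriched peaks, of 111, 119, 123, 159, 8, 137, 75 and 154 clusters. Its listed peaks numbered 6, 13, 0 and 10 by group, rank 46. The locus at 8690831 to 8690960, 489 nt from the 5′ end in an intron of an alternative transcript, was enriched in 8 of 8 libraries with log2 folds of 3.63, 5.07, 3.77, 4.07, 5.05, 4.09, 4.25 and 3.42. It was in 3 lists and missing from that of the glucagon lower band, though both libraries of that group had an enriched peak there. At 1144 nt, locus 8691478 to 8691622 had log2 folds of 5.34, 5.39, 4.40 and 4.94 in control libraries, no cluster in glucagon lower band replicate 1, and 4.09, 4.76 and 5.28 in the other glucagon libraries.

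Zeb1 (chromosome 18, 5591860 to 5775467, plus strand) had 8, 11, 9, 16, 1, 4, 8 and 11 enriched peaks, of 77, 108, 132, 134, 7, 96, 65 and 121 clusters. Listed peaks numbered 8, 12, 1 and 6 by group, rank 57. All 11 of its loci lay within 3 kb of the 5′ end. None was enriched in all 8 libraries, and the locus centred 575 nt from the 5′ end was enriched in 7, with log2 folds of 3.63, 3.70, 3.53 and 4.41 in control libraries, no cluster in glucagon lower band replicate 1, and 3.30, 3.78 and 4.63 in the others.

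Ehmt1 (chromosome 2, 24789928 to 24919614, minus strand) was crossed by many clusters but had few enriched ones. Its clusters numbered 47, 72, 88, 117, 2, 79, 29 and 91, of which 3, 3, 0, 1, 0, 0, 1 and 2 were enriched. The median log2 fold of its clusters was 1.14, the lowest of the 6 genes, against 1.49 in Zeb1, 1.74 in Zmiz2, 2.07 in Chd7, 2.27 in Zmiz1 and 2.86 in Ahdc1. Its 3 loci all lay within 2 kb of the 5′ end. At 24919386 to 24919477 the log2 folds were 4.99 and 3.88 in the control lower band and 1.55 and 2.73 in the control upper band, and only the lower band pair was enriched. In the glucagon libraries with a cluster at this locus the values were 1.43, 2.34 and 3.39, and the last was enriched.

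**Figure D2:**
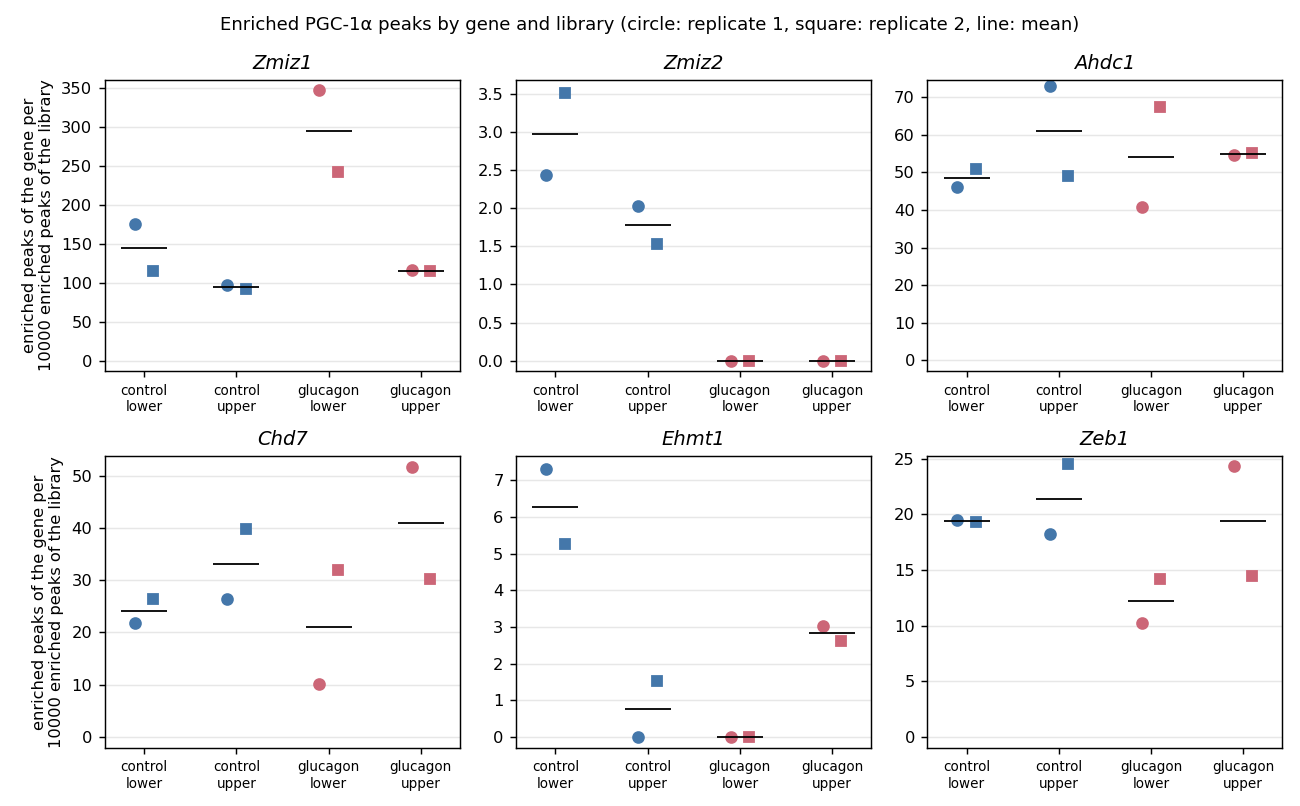
Enriched peaks of each gene per 10000 enriched peaks of the library, by group (horizontal axis); circles are replicate 1, squares replicate 2 and lines the mean of the 2, with a vertical scale of its own in each panel. Zmiz1 sits at 347 and 242 in the glucagon lower band and at 92.0 to 175 elsewhere. It overlaps between treatments over the bands combined, as do Ahdc1, Chd7, Zeb1 and Ehmt1. In the lower band Zeb1 and Ehmt1 have both glucagon points under the control points, and how many other genes do so was not counted.

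A few values lay close to the thresholds. The lowest log2 fold among enriched peaks of these genes was 3.004, and the highest just under the threshold among clusters that passed on p was 2.9998, both in Zmiz1. Clusters of Chd7 and Ahdc1 with a −log10 p of 2.991 fell just short on the other measure.

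Clusters were enriched more often in the first 2 kb than in the rest of each of the 6 genes. In the first 2 kb of Zmiz1, 99 of 104 clusters were enriched (95.2%), against 373 of 2262 (16.5%) in the rest. Chd7 had 59 of 68 (86.8%) against 54 of 818 (6.60%), and Zeb1 59 of 79 (74.7%) against 9 of 661 (1.36%). Ehmt1 had 9 of 45 in the first 2 kb against 1 of 480, and Zmiz2 4 of 35 against 1 of 47. These shares are over pooled libraries and are descriptions. In Ahdc1 the gap was smaller, with 27 of 43 (62.8%) against 172 of 530 (32.5%), and its 30 loci ran out to 31747 nt. By number, most enriched peaks of Zmiz1 and Ahdc1 lay further in, with 28.4% and 36.7% of them in the first 5 kb. Zmiz2 rests on 5 enriched peaks.

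Other genes held a like share of enriched peaks at their 5′ ends. Over the 6 genes together 29.6% of enriched peaks and 7.23% of clusters lay in the first 2 kb. In the other 14158 coding genes of at least 10 kb the shares were 29.9% ± 2.87 and 8.88% ± 1.54 (SD, n = 8 libraries). The latter are means over libraries and the former are pooled, and gene length was not matched. Single genes differed widely, from 13.6% of enriched peaks in Ahdc1 and 20.97% in Zmiz1 to 52.2% in Chd7 and 86.8% in Zeb1. Peaks further in were partly near other annotated starts. In Zmiz1, 45 of the 373 enriched peaks beyond 2 kb lay within 2 kb downstream of another transcript start, and in Ahdc1 51 of 172.

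**Figure D3:**
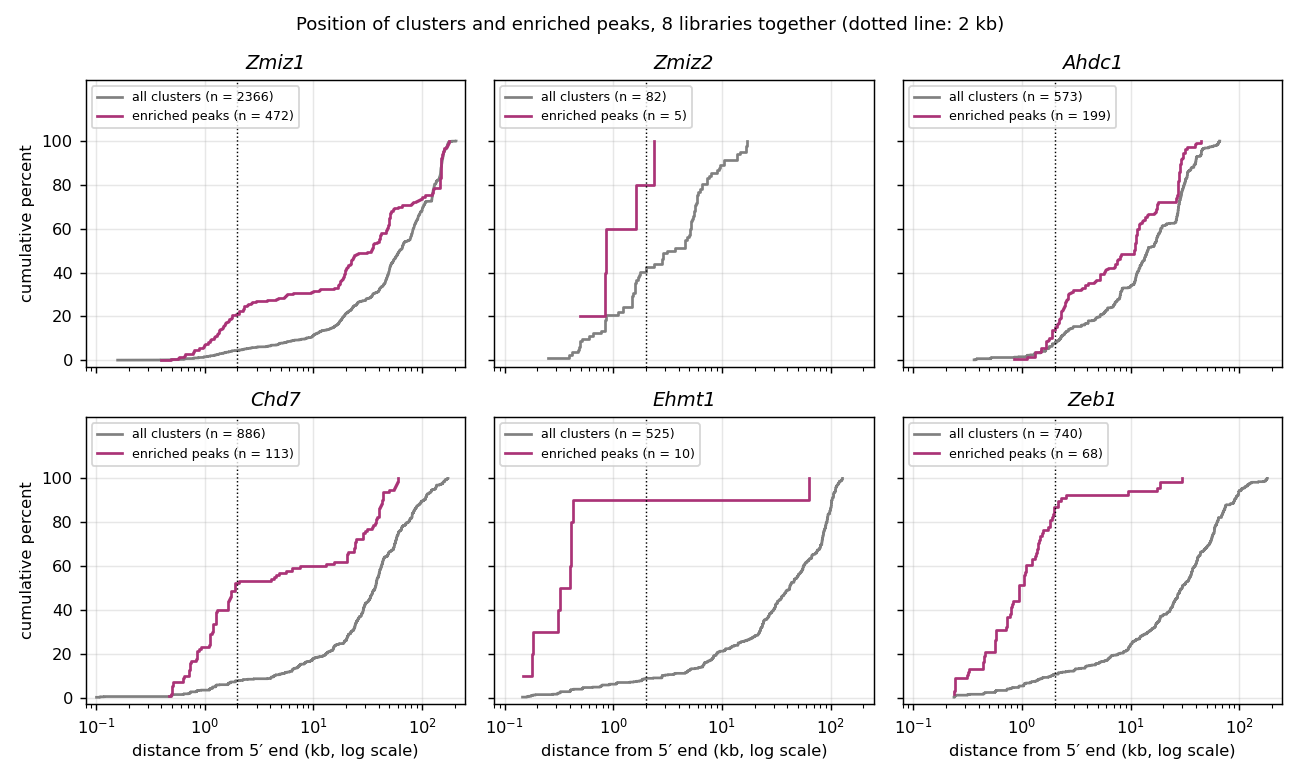
Cumulative percent (vertical axis) of all clusters (grey) and enriched peaks (purple) by distance from the 5′ end of the gene in kb on a log axis, 8 libraries together, with the number of each in the panels and a dotted line at 2 kb. The purple curve is at 86.8% for Zeb1 and 52.2% for Chd7 by 2 kb but at 13.6% for Ahdc1.

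**Figure D4:**
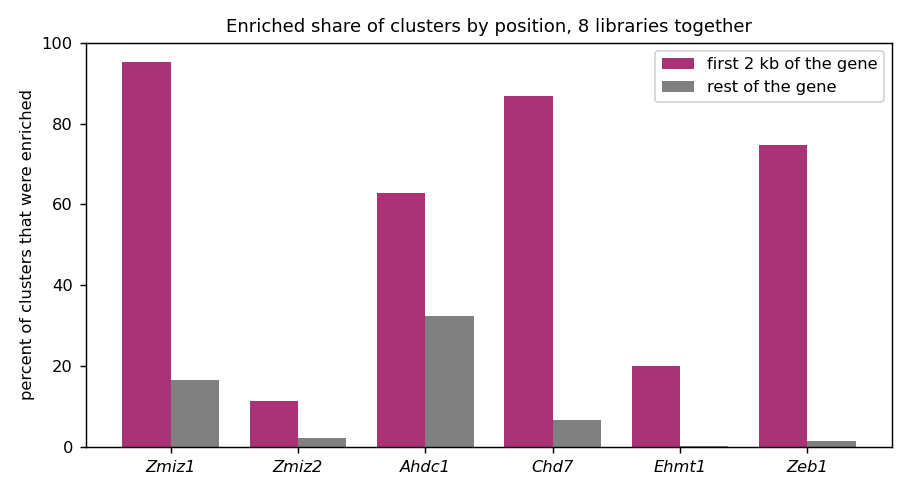
Percent of clusters that were enriched in the first 2 kb of each gene (purple) and in the rest of it (grey), 8 libraries together, without error bars because libraries are pooled. The share is 95.2% against 16.5% in Zmiz1 and 62.8% against 32.5% in Ahdc1.

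Nearly all peaks were intronic, whether enriched or not. Of 867 enriched peaks 835 lay in introns, 14 in 5′ UTRs, 18 in noncoding exons and 0 in coding sequence or 3′ UTRs. The position of peaks was not used to choose the genes. Enriched peaks were therefore compared with all clusters of the same genes, which include them, by exact two-sided sign flips over 8 libraries. There were 256 assignments, a smallest possible p of 0.00781 and Benjamini-Hochberg adjustment over 3 tests. The intronic share was 96.0% ± 2.48 for enriched peaks and 95.4% ± 1.21 for clusters (SD, n = 8), a difference of 0.58 ± 3.16 percentage points that was positive in 4 of 8 libraries (exact p = 0.680, adjusted 0.680). The bands entered as separate libraries, and the labels do not give their independence.

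A larger share of enriched peaks than of clusters lay in introns within 500 nt of an exon. The share in introns within 500 nt of an exon averaged 20.5% ± 4.63 of enriched peaks and 9.34% ± 1.43 of clusters (SD, n = 8). It ran from 19.0% in glucagon lower band replicate 2 to 24.3% in control upper band replicate 2 among enriched peaks of 7 libraries. Among clusters of the 8 libraries it was 7.52% to 11.47%. The smallest library, glucagon lower band replicate 1, lay outside the first range and had the narrowest gap, 1.84 percentage points over its 8.16% of clusters. Each library had the higher share among enriched peaks, by 11.2 ± 4.12 percentage points on average (SD, n = 8; exact p = 0.00781, the smallest possible, adjusted 0.0234). By gene the mean share of enriched peaks over libraries was 54.2% in Chd7, 50.9% in Zeb1, 13.7% in Zmiz1 and 7.98% in Ahdc1, against 15.0%, 17.1%, 5.40% and 6.02% of clusters. Whether this difference is larger in these genes than in others was not tested. Chd7 and Zeb1 also had 52.2% and 86.8% of their enriched peaks in the first 2 kb. The near-exon share was not counted apart from that stretch, so it is not a result separate from the 5′ position.

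The share of peaks in the first intron depended on the gene and on the transcript taken. Over the 6 genes the first intron of the longest coding transcript held 51.1% ± 4.15 of enriched and 47.04% ± 6.13 of all intronic clusters (SD, n = 8), a difference of 4.04 ± 3.79 points, positive in 7 of 8 libraries (exact p = 0.0234, adjusted 0.0352). Without Zmiz1 the difference turned to −20.7 points (exact p = 0.00781), and with a log2 fold threshold of 2 it was −2.11. The genes are pooled, so these values also reflect how many peaks each gene holds. Ahdc1 had 199 enriched peaks of 573 clusters, against 113 of 886 in Chd7 and 68 of 740 in Zeb1. The −20.7 is thus not a shift in position within each gene. The mean share over libraries was 59.6% of enriched peaks against 34.4% of clusters in Zmiz1, 67.6% against 76.8% in Chd7, 100% against 97.6% in Zeb1, and 0% in Ahdc1 for both. For the longest coding transcript the pooled value therefore rests on Zmiz1. Counting the first intron of any transcript, an alternative chosen after seeing the data, the difference was 11.1 points. By that count 98.99% of all enriched peaks and 93.72% of all clusters of Ahdc1 lay in a first intron, over pooled libraries. The first intron of its longest coding transcript is only 666 nt long. Pooled in the same way, the shares were 86.23% and 68.55% in Zmiz1, 100% and 87.25% in Chd7, and 100% and 96.49% in Zeb1.

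Enriched peaks of the 6 genes recurred between replicates. On average 39.9% ± 13.0 of them shared at least 1 base with an enriched peak of the other replicate of the group, against 29.2% ± 9.61 in all other genes (SD, n = 8 libraries, which form 4 pairs), and the share was higher in 8 of 8 libraries. The genes were chosen partly by listed reproducible peaks, so this difference is a description, with no test. By gene the mean was 64.0% in Zeb1, 50.9% in Chd7, 38.7% in Zmiz1, 37.5% in Ahdc1, 26.7% in Ehmt1 and 0% in Zmiz2.

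Glucagon was then compared with control. Of 496 genes with at least 16 enriched peaks 60 passed an adjusted p of 0.05 in either direction (12.1%; limma with the band as a covariate, Benjamini-Hochberg), 29 higher and 31 lower with glucagon. Scaled to all clusters of a library in place of its enriched peaks, 20 passed, 15 higher and 5 lower. None of the 4 tested genes among the 6 passed in the first fit. These comparisons use the same peaks that chose the genes, though not their difference between treatments.

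Zmiz1 made up a larger part of the enriched peaks with glucagon in the lower band. Per 10000 enriched peaks of the library it had 175 and 114 in the lower band of controls and 347 and 242 with glucagon. In the upper band it had 97.4 and 92.0 in controls and 116 and 114 with glucagon. Both glucagon libraries were above both controls in each band, by a wide gap in the lower band only. How many other genes show such an order was not counted, so the order alone does not set Zmiz1 apart. The log2 difference over both bands was 0.66 ± 0.26 (SE; limma, adjusted p = 0.117). Clusters of Zmiz1, as a share of library clusters, differed by 0.84 ± 0.34 on the log2 scale (SE; limma, adjusted p = 0.263), where 173 of 4210 genes passed (4.11%).

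Within the lower band alone the log2 difference of Zmiz1 was 1.04 ± 0.29 (SE; limma, adjusted p = 0.0272), with 54 of 496 genes passing (10.9%). In the upper band it was 0.28 ± 0.29 (SE; limma, adjusted p = 0.771), with 13 passing (2.62%). The difference between bands was −0.76 ± 0.41 (SE; limma, adjusted p = 0.565), so the bands were not shown to differ. The lower band value did not pass without control lower band replicate 2 (0.73, limma adjusted p = 0.236) or without the small library, glucagon lower band replicate 1 (0.77, adjusted p = 0.0806), nor without any 1 of the 4 upper band libraries, where it stayed at 1.04 and the limma adjusted p was 0.0513 to 0.0638. Scaled to all clusters it was 0.63 (limma adjusted p = 0.570), at a log2 fold of at least 4 it was 0.83 (adjusted p = 0.445), and at a −log10 p of at least 5 it was 0.98 (adjusted p = 0.0851). The call was thus lost in 9 of 15 settings. These settings were applied to the lower band value after seeing the data.

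Ahdc1, Chd7 and Zeb1 did not pass in either treatment fit. Per 10000 enriched peaks Ahdc1 had 46.2, 50.9, 73.0, 49.1, 40.9, 67.5, 54.7 and 55.2, Chd7 had 21.9, 26.3, 26.4, 39.9, 10.2, 32.0, 51.7 and 30.2, and Zeb1 had 19.5, 19.3, 18.3, 24.5, 10.2, 14.2, 24.3 and 14.5 by library. Over both bands together the treatments overlapped for all 3. Within the lower band both glucagon values of Zeb1 lay under the control values, and Ahdc1 and Chd7 overlapped. The number of other genes with such an order was not counted. Log2 differences were 0.04 ± 0.27 for Ahdc1, 0.07 ± 0.34 for Chd7 and −0.27 ± 0.33 for Zeb1 (SE; limma, adjusted p = 0.946, 0.911 and 0.651). Counted over all clusters, log2 differences were 0.43 in Ahdc1, −0.10 in Chd7, −0.20 in Zeb1, −0.49 in Zmiz2 and −0.54 in Ehmt1, with limma adjusted p from 0.460 to 0.867.

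The upper and lower bands were compared in the same fit, where 1 of 496 genes passed (0.202%). Zmiz1 had a lower share of enriched peaks in the upper band, by −0.96 ± 0.26 on the log2 scale (SE; limma, adjusted p = 0.0974). It passed with no minimum number of peaks (limma adjusted p = 0.0102). That fit took every gene with an enriched peak, so its calls are not out of the 496. Without control lower band replicate 2 the difference of Zmiz1 was −1.15. Chd7 differed by 0.62 ± 0.34, Zeb1 by 0.22 ± 0.33 and Ahdc1 by 0.14 ± 0.27 (SE; limma, adjusted p = 0.374, 0.785 and 0.854).

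Most loci listed in 1 treatment had a cluster in the other. The 122 loci comprised 61 listed for control only, 20 for glucagon only and 41 for both, or 50.0%, 16.4% and 33.6%. Over all 5128 listed loci of the series the shares were 61.95%, 16.5% and 21.5%, and the difference was not tested. Of the 61, 24 overlapped no enriched peak of a glucagon library, and 19 of these 24 still had a glucagon cluster. Of the 20, 8 overlapped no enriched control peak, and 7 of these had a control cluster. The control lists are longer, with 2206 and 3692 peaks against 413 and 2167.

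Related coregulator genes were described from 9 lists of 146 genes, none of them a member. Of the 140 with a cluster 46 had a listed peak (32.9%), against 1234 of all 13156 genes with a cluster (9.38%). Their number of clusters was not matched, and the lists were drawn up with earlier results of these data known. Zbtb16, a zinc finger repressor, had 41 listed peaks and Rai1, a nucleosome-binding regulator, had 39, both more than Chd7. The share with a listed peak was 63.6% among AT-hook genes (Hmga1 9 listed peaks, Baz2a 8, Baz2b 4) and 50.0% among CHD remodellers (Chd4 5, Chd2 1, Chd3 1). Zinc finger repressors and the CtBP complex, taken as 1 list, had 45.5% (Zfp644 14, Ctbp1 1). A list headed bromodomain and Mediator coregulators reached 44.4%, but its genes named here, Rai1, Arid5b (15) and Tcf20 (12), are of other kinds. Among histone demethylases the share was 33.3% (Kdm6b 16, Jmjd1c 16, Kdm5b 12). The histone methyltransferase list reached 30.8% (Setd1a 13, Nsd2 8, Ezh2 4) and that of PIAS and SUMO ligases 30.0% (Pias1 4, Pias4 1). The lowest shares were those of acetyltransferases and deacetylases, 4 of 20 (Sin3a 3, Kat2b 2, Hdac5 2), and of SWI/SNF, ISWI and related remodeller subunits, 14.3% (Arid1a 6, Arid1b 6, Srcap 1).

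With glucagon 3 of the 19 list genes tested fell and 0 rose. Over all 496 genes 31 fell (6.25%) and 29 rose, and the lists were not tested against the other genes. The list genes' median log2 difference was −0.17 against −0.15 over all 496 genes. Arid5b, an ARID-domain partner of a histone demethylase, had 15, 15, 14 and 18 enriched peaks in control libraries and 2, 4, 3 and 3 in glucagon libraries. Its log2 difference was −1.36 ± 0.40 (SE; limma, adjusted p = 0.0343). Kdm6b, a demethylase of histone H3 lysine 27, had 5, 9, 9 and 18 against 0, 1, 1 and 8 (−1.61 ± 0.41; limma, adjusted p = 0.0179).

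Hmga1, an architectural AT-hook protein, had 2, 5, 6 and 6 enriched peaks in control libraries and 0 in each glucagon library (limma adjusted p = 0.0236, and 0.0521 with a pseudocount of 1). Clusters of Hmga1 were also fewer with glucagon, at 11, 11, 13 and 16 against 0, 7, 3 and 6. Those of Kdm6b were 14, 10, 20 and 23 against 1, 9, 6 and 12. Arid5b had 229, 243, 324 and 334 clusters against 26, 194, 110 and 203. These cluster counts were not divided by the clusters of the library. Whether the recovered RNA had a part in the change was not tested. Other settings were applied to these 3 genes after seeing the data. None of them passed when enriched peaks were scaled to all clusters (limma adjusted p = 0.163 to 0.241). Without the small library, glucagon lower band replicate 1, all 3 passed (limma adjusted p = 0.00456 to 0.0118), and each lost the call without at least 3 of the other libraries in turn, with adjusted p up to 0.117 in Arid5b, 0.116 in Hmga1 and 0.0780 in Kdm6b.

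The genes whose share of enriched peaks followed each member most closely over the 8 libraries were found by Pearson's r, as a description. For Zmiz1 they were Snd1 (0.954), Klc1 (0.945) and Baiap2 (0.944), for Ahdc1 Luzp1 (0.900), Sppl3 (0.817) and Hnrnpu (0.804), for Chd7 Ube2v1 (0.862), Cxxc5 (0.860) and D17Wsu92e (0.851), and for Zeb1 Stk38l (0.964), Tsku (0.862) and Mrtfb (0.796). All points share the libraries and their depth. Between members r was 0.640 for Chd7 with Zeb1, 0.333 for Ahdc1 with Chd7, −0.153 for Ahdc1 with Zeb1, −0.237 for Zmiz1 with Ahdc1, −0.637 for Zmiz1 with Chd7 and −0.603 for Zmiz1 with Zeb1.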

How the data were processed

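Single-end eCLIP of PGC-1α was deposited as 1 cluster file for each of 8 immunoprecipitated libraries and 1 reproducible list for each of 4 groups. Inputs were not analysed here on their own. The submitters' processing notes name cutadapt, STAR and the build mm10, without versions. How peaks were called and lists made is not given in the sources used here. The deposited files have no header. From its range, 1 deposited column was read as a −log10 p-value over input, with a cap of 400, and the next deposited column as log2 fold enrichment. Both are the authors' own and served to filter and describe peaks.

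Clusters were placed by midpoint and strand in GENCODE M21, and counts were checked with bedtools 2.31.1. Enriched peaks per gene were divided by the library's enriched peaks, with a pseudocount of 0.5, multiplied by 10000 and fitted on the log2 scale with limma 3.58.1 in R 4.3.3 over all 8 libraries, with treatment and band as terms. Genes needed 16 enriched peaks or 80 clusters in sum, and p-values were adjusted over all genes tested (Benjamini-Hochberg). The fit was also run on simulated counts, drawn independently for each library and without a band effect. That run does not cover dependence between libraries. Shares by position were compared by exact sign flips in Python 3.11.15 with numpy 2.4.6 and pandas 2.3.3. Files give no read counts, so no interval on depth could be formed.

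The 6 genes, the 9 lists and the tests were chosen with earlier results of these data known. Genes named are the 6, up to 3 per list by listed peaks, list genes past the threshold with glucagon, and the 3 genes most like each member. A gene that the rule takes is not reported here. Alternatives covered thresholds, pseudocount, minimum, scaling, region rules, each library left out and a replicate block. The planned sign-flip test of replicate overlap was dropped and its values are given as description, since listed peaks helped to choose the genes.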

Additional observations from a re-analysis of the deposited data

How the results depend on the processing

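Genes passing for treatment on enriched peaks numbered 60, and 168 with a log2 fold of at least 2, 2 with at least 4, 20 scaled to all clusters and 31 to 80 with 1 library left out. Scaling to clusters moved each gene's treatment difference over both bands by 0.11 on the log2 scale. For treatment on clusters 173 passed, 301 with no minimum and 58 to 549 with 1 library left out: 311 without glucagon lower band replicate 1 and 549 without replicate 2. For the band 1 passed (71 at an unadjusted p under 0.05), and 8 with a pseudocount of 1, 6 with no minimum, 7 with a log2 fold of at least 2, 3 with at least 4, 0 with a −log10 p of at least 5, 0 scaled to clusters and 0 to 7 with 1 library left out. Same-numbered libraries did not deviate together (correlation of deviations −0.011 to 0.100 over 496 genes). That cannot exclude a pairing, because many genes have few enriched peaks per library. With a replicate block 47, 230 and 0 genes passed for treatment on enriched peaks, treatment on clusters and band.

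Zmiz1 passed for treatment at a log2 fold of at least 2 (0.74, limma adjusted p = 0.0187), a fit over another set of genes in which many more passed. Its difference on clusters was 1.14 without glucagon lower band replicate 2. Differences near 0 changed sign without passing. With 1 library left out, that of Ahdc1 on enriched peaks ran from −0.11 to 0.18, that of Chd7 from −0.13 to 0.34, and on clusters those of Zmiz2 from −0.81 to 0.035, Chd7 from −0.25 to 0.25 and Zeb1 from −0.33 to 0.052, the highest of these 3 without the small library, glucagon lower band replicate 1. That of Ahdc1 on enriched peaks was −0.014 at a log2 fold of at least 2 and −0.71 at a −log10 p of at least 5. For the band Ahdc1 ran from −0.0019 to 0.29 with 1 library left out, and Zeb1 came to −0.020 at a log2 fold of at least 2.

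The intronic difference of 0.58 points was 1.40 at a log2 fold of at least 2 and 1.20 with introns taken before exons, both past an exact p of 0.05, and −0.19 at a log2 fold of at least 4, −1.12 at a −log10 p of at least 5 and −0.10 to 1.34 with 1 library left out. The first intron difference was −20.7 without Zmiz1, −2.11 at a log2 fold of at least 2 and 3.27 to 4.90 with 1 library left out. As a value pooled over genes it also moves with the mix of genes. The near-exon difference of 11.2 was 10.4 to 12.5 with 1 library left out and 4.15 to 15.9 over all 16 alternatives, each with an exact p past the threshold. That of replicate overlap, a description, was 9.83 to 11.8 with 1 library left out and 4.76 to 23.2 over all 16. The cause of these changes was not tested.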
